A study of Mus musculus with 12 samples.

Results

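Calprotectin and the neutrophil granule genes were followed in the livers of 12 fasted male mice, 6 wild type and 6 Sirt4 knockout. The 9 genes, chosen by name, were S100a8, S100a9, Ngp, Camp, Ltf, Elane, Mpo, Cxcr2 and Il1b. Probe sets were assigned to them by Entrez gene number. Each gene had 1 probe set, a group of short oligonucleotides that together read 1 transcript, so 9 of the 45037 probe sets on the array belonged to them. The animals were 129SV littermates aged 7 to 8 months, killed after a fast of 16 h, and each liver was hybridised to its own Affymetrix Mouse Genome 430 2.0 array. The labels give the genotypes as SIRT4 WT and SIRT4 KO and do not say how the allele was made. The tissue was whole liver, so fewer cells of a type and less RNA per cell cannot be told apart.

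Neutrophils are short-lived phagocytes of the blood, and the healthy liver holds few of them. Their granules are filled at successive stages of maturation in the bone marrow: azurophil granules, with myeloperoxidase and elastase, are made first, and specific granules, with lactoferrin and cathelicidin, later. Mature neutrophils carry these proteins but little of the mRNA, while mRNA for S100A8 and S100A9 stays abundant in them. S100A8 and S100A9 form calprotectin, a calcium- and zinc-binding complex of the cytosol that monocytes and stimulated macrophages also make.

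Arrays were alike as a whole, with median intensities between 36.6 and 38.69 and correlations between arrays of 0.988 to 0.994. Sirt4 itself averaged 172 ± 14.5 (intensity, SD, n = 6) in the wild types against 104 ± 16.4 in the knockouts, without overlap (log2 fold change -0.53, limma adjusted p = 0.0534 over all probe sets, and from 0.0184 without the knockout arrays titled -2 to 0.999 in the 7500 series alone). The numbers in the sample titles lie in the 7200s for 2 wild-type and 5 knockout animals and in the 7500s for the other 4 wild-type animals and 1 knockout, called the 7200 and 7500 series here. Their meaning is not given, so values within each series are given beside those over all animals. Wild type replicates 5 and 6, both of the 7500 series, and knockout replicate 4, of the 7200 series, stood apart for S100a8 and S100a9. Results that rest on them are given with and without wild type replicates 5 and 6. Some fold changes are also given without knockout replicate 4, but no correlation is.

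The windows before the starts of S100a8, S100a9 and Ngp are shown because the first pair varied together over the animals while the granule gene Ngp followed them less closely. Each line gives the 250 bases before the start from RefSeq (GRCm38.p6), 5′ to 3′ on the gene's own strand. The windows are chr3:90668821-90669070 on the plus strand for S100a8, chr3:90695722-90695971 on the minus strand for S100a9 and chr9:110419558-110419807 on the plus strand for Ngp. Capitals mark matches, on either strand, to letters typical of 2 factors of myeloid cells, TTNNGCAA for C/EBP proteins and GAGGAAG for PU.1.
S100a8: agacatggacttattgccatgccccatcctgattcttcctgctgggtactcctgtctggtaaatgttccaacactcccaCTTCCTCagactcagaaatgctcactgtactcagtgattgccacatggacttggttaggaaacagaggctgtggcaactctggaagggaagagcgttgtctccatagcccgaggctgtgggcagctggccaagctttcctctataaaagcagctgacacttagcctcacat
S100a9: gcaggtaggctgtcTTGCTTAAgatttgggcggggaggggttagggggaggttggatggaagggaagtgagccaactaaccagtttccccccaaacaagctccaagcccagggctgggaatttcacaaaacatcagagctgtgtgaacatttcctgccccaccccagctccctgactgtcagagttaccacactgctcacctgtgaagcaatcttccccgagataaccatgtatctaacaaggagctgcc
Ngp: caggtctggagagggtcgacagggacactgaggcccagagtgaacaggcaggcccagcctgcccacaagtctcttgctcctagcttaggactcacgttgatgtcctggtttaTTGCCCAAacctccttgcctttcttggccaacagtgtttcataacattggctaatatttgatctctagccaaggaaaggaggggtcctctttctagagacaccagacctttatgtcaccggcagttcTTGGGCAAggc
The S100a8 window held 1 PU.1-like match and the S100a9 window 1 C/EBP-like match, and no motif was shared by both. The Ngp window held 2 C/EBP-like matches. Over the 9 genes, 3 windows held a C/EBP-like match (S100a9, Ngp and Ltf) and 3 a PU.1-like match (S100a8, Elane and Mpo). Of all 32851 promoter windows of this length, 9.56% held the C/EBP-like letters and 10.6% the PU.1-like letters. A STAT-like motif, TTCNNNGAA, was in 0 of the 9 windows and in 7.02% of all windows. These matches are descriptions of the letters.

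Signal was low for most of the 9 genes. The tables hold no detection call, and the array median is used here only as a mark of low signal. Elane and Cxcr2 lay below the array median on all 12 arrays, while Ngp, Mpo and Il1b lay above it on all 12. Between these, S100a8 was above it on 4 arrays, S100a9 on 5, Camp on 6 and Ltf on 9. Ly6g, the marker most used for mouse neutrophils, was not measured here. Csf3r, the receptor of granulocyte colony-stimulating factor, was above the median on all 12 arrays, with wild-type animals at 87.8 to 115 and knockout animals at 85.5 to 127 (log2 fold change 0.053, SE 0.067, limma adjusted p = 0.959). Csf3r was picked from the receptor list after its values were seen. Of the 12 receptors measured in that list, 8 had a log2 fold change below 0 and 4 above, against 49.6% of all genes below 0. At an unadjusted limma p under 0.05, 3 were lower and 1 higher, against 3.27% and 3.23% of all genes.

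**Figure D1:**
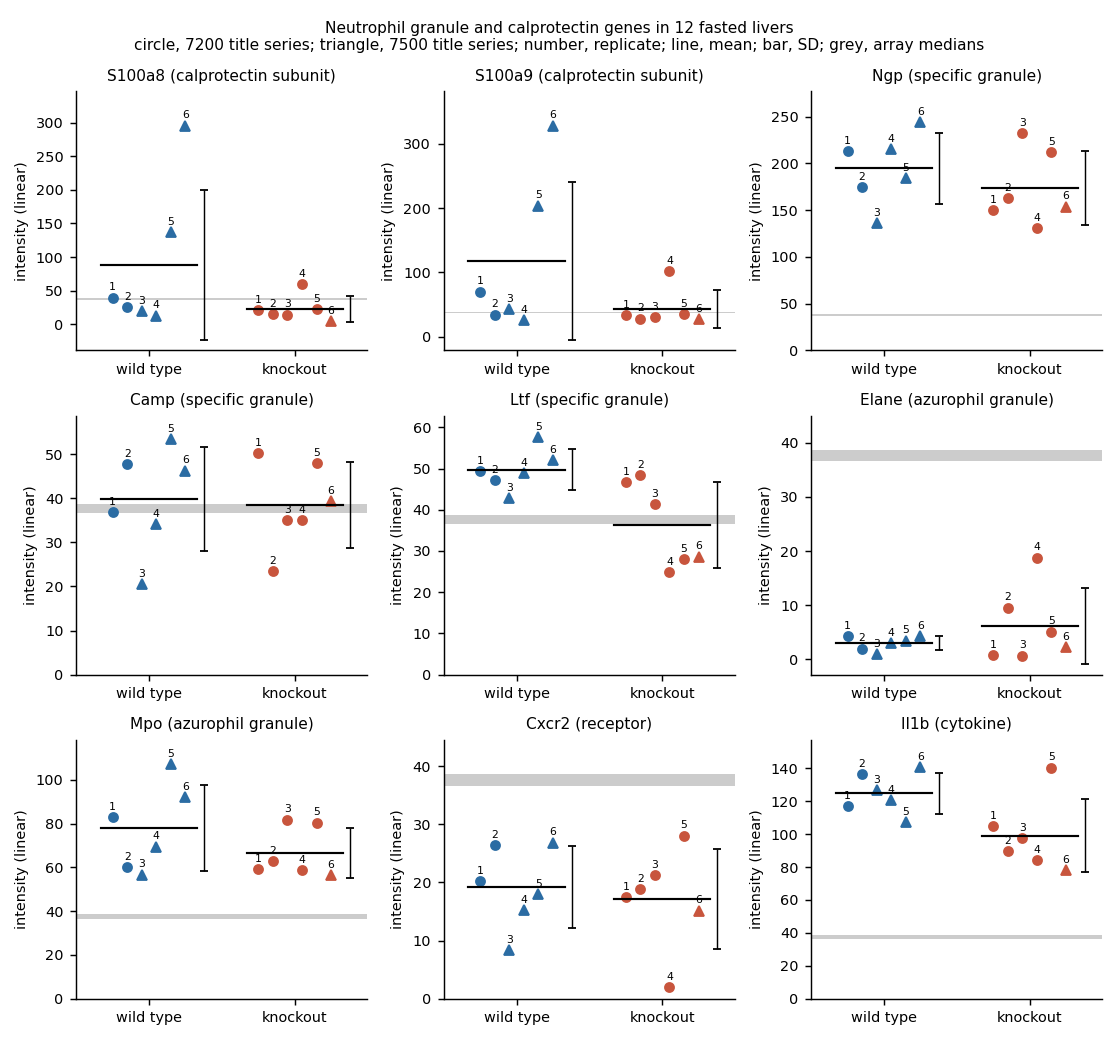
Intensity (linear scale) of the 9 genes in each animal, with the mean (line) and SD (bar) of the 6 animals per genotype and the range of array medians in grey. Wild type replicates 5 and 6 reach 137 and 295 for S100a8, and the other 4 wild-type animals lie at or below 39.8.

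Neither calprotectin gene passed the test between genotypes, and the difference in means was carried by 2 wild-type animals. S100a8 (Entrez gene 20201, chromosome 3) read 39.8, 25.8, 19.8, 13.03, 137 and 295 in wild type replicates 1 to 6. In knockout replicates 1 to 6 it read 21.1, 15.2, 14.6, 60.0, 23.1 and 5.33. Apart from wild type replicates 5 and 6 and knockout replicate 4, all animals were low, in overlapping ranges. These were 13.03 to 39.8 in wild type and 5.33 to 23.1 in knockout. The means were 88.4 ± 111 and 23.2 ± 19.1 (intensity, SD, n = 6), so the wild-type SD exceeded the mean. On the scale log2(intensity + 50), which understates changes of dim genes, the fold change was -0.64 (SE 0.33, 95% interval -1.35 to 0.063, limma adjusted p = 0.867). An exact two-sided permutation of the animals gave p = 0.182. Without wild type replicates 5 and 6 the log2 fold change was -0.050 (SE 0.15), without these and knockout replicate 4, a choice made after seeing the data, it was -0.17 (SE 0.10), and a fit with a term for the title series gave -0.53.

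S100a9, the partner subunit (Entrez gene 20202, chromosome 3), had the same order at the top. It read 70.5, 34.8, 43.2, 26.4, 204 and 328 in wild type replicates 1 to 6 and 34.5, 28.4, 31.2, 102, 35.9 and 27.7 in knockout replicates 1 to 6. Knockout replicate 4 was the only knockout animal above 35.9. The group means were 118 ± 122 and 43.3 ± 29.0 (intensity, SD, n = 6; log2 fold change -0.61, SE 0.33, 95% interval -1.31 to 0.083, limma adjusted p = 0.868). Permuting the animals gave an exact two-sided p = 0.212, and without wild type replicates 5 and 6 the log2 fold change was -0.031 (SE 0.17). Without knockout replicate 4 as well it was -0.18 (SE 0.10). Within the 7200 series, which holds neither of these animals, S100a8 had a log2 fold change of -0.13 and S100a9 of -0.12. In the 7500 series, with its lone knockout array assumed to vary like the wild types, the values were -1.23 and -1.06. The authors' deposited table gives signed fold changes of -3.87 for S100a8 and -2.73 for S100a9, with unadjusted p-values of 0.210 and 0.200.

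Of the specific granule genes, Ltf differed most between the genotypes. Ltf (Entrez gene 17002, chromosome 9) encodes lactoferrin, an iron-binding protein. Wild-type animals ran from 42.8 through a median of 49.2 to 57.6, and knockout animals from 24.9 through 34.9 to 48.4. Knockout replicates 1 to 6 read 46.7, 48.4, 41.3, 24.9, 28.0 and 28.6, and replicates 3 to 6 lay below every wild-type animal. The means were 49.7 ± 4.96 and 36.3 ± 10.4 (intensity, SD, n = 6; log2 fold change -0.21, SE 0.071, 95% interval -0.37 to -0.064). The exact two-sided permutation p was 0.0173, unadjusted, and limma's adjusted p over all probe sets was 0.826, so Ltf did not pass. Unlike the calprotectin genes, Ltf kept most of its value without wild type replicates 5 and 6 (-0.18, SE 0.081). It was -0.17 within the 7200 series and -0.35 within the 7500 series. These levels straddle the array median, where signal is low.

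The other specific granule genes overlapped throughout. Ngp, a granule protein of neutrophil precursors related to cathelicidins (Entrez gene 18054, chromosome 9), was bright on every array. It ran from 136 through a median of 199 to 244 in wild type and from 131 through 158 to 232 in knockout (log2 fold change -0.13, SE 0.12, 95% interval -0.38 to 0.11, limma adjusted p = 0.930). Wild type replicate 6 was highest for Ngp, but knockout replicate 3 came next and knockout replicate 4 was lowest of all. Camp, the precursor of the antimicrobial peptide cathelicidin (Entrez gene 12796, chromosome 9), ran from 20.5 through 41.6 to 53.5 in wild type and from 23.4 through 37.2 to 50.2 in knockout. Its log2 fold change was -0.018 (SE 0.091, 95% interval -0.21 to 0.17), and the sign turned in 7 of 25 other settings.

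The azurophil granule genes also overlapped between genotypes. Mpo, the peroxidase that makes hypochlorous acid (Entrez gene 17523, chromosome 11), ran from 56.6 through a median of 76.2 to 107 in wild type and from 56.5 through 61.0 to 81.9 in knockout. Wild type replicates 5 and 6 were also the highest for Mpo, at 107 and 92.2. The log2 fold change was -0.13 (SE 0.091, 95% interval -0.32 to 0.066, limma adjusted p = 0.908), and it was -0.0091 without these animals. Elane, the serine protease neutrophil elastase (Entrez gene 50701, chromosome 10), read 1.04 to 4.30 in wild type and 0.72 to 18.8 in knockout. All Elane values are far below the array median, so their order has little meaning, and its positive log2 fold change (0.076, SE 0.068) is given only as a value.

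The receptor and the cytokine behaved differently. Cxcr2, which draws neutrophils towards CXC chemokines such as CXCL1 (Entrez gene 12765, chromosome 1), ran from 8.35 to 26.9 in wild type and from 2.03 to 28.1 in knockout (log2 fold change -0.047, SE 0.088, limma adjusted p = 0.977). Il1b (Entrez gene 16176, chromosome 2) encodes interleukin 1 beta, an inflammatory cytokine of macrophages as well as neutrophils. Its wild-type animals ran from 107 through a median of 124 to 141, and knockout animals from 78.1 through 93.7 to 140. In 5 of 6 knockout animals Il1b read 105 or less, below the lowest wild-type animal, and knockout replicate 5 at 140 lay among the highest. The means were 125 ± 12.4 and 99.2 ± 22.3 (intensity, SD, n = 6; log2 fold change -0.24, SE 0.083, 95% interval -0.41 to -0.063). The exact two-sided permutation p was 0.0325, unadjusted, and limma's adjusted p was 0.831, so Il1b did not pass. Without wild type replicates 5 and 6 it was -0.24, and the values within the 7200 and 7500 series were -0.21 and -0.44. Without knockout replicates 1, 4 and 6, whose titles end in -2 for a reason the labels do not give, it was -0.14.

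**Figure D2:**
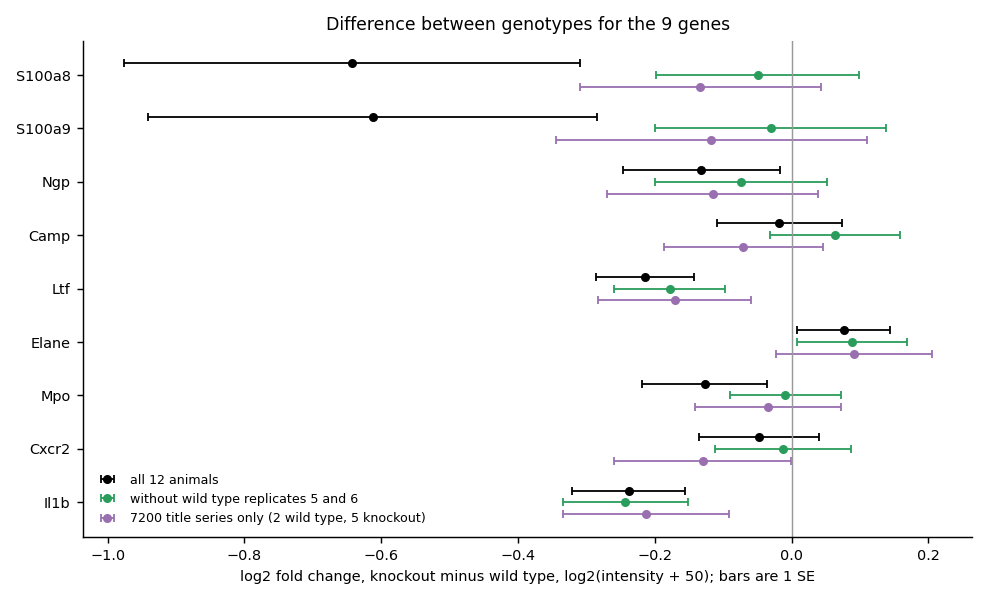
Log2 fold change of the 9 genes, knockout minus wild type on the scale log2(intensity + 50), with 1 SE, over all 12 animals, without wild type replicates 5 and 6, and within the 7200 title series. S100a8 and S100a9 move from -0.64 and -0.61 to -0.050 and -0.031 without these animals, and Il1b stays at -0.24.

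Of the 9 genes, 0 passed limma's adjusted p of 0.05, as did 0.00% of all 45037 probe sets. At an unadjusted p under 0.05, 2 of 9 were lower in the knockout, Ltf and Il1b, against 2.90% of all probe sets, and 0 were higher, against 2.98% (5.89% in either direction). No member had groups without overlap, against 0.229% of all probe sets (0.0866% lower in the knockout). The median log2 fold change of the 9 was -0.13, with 8 of 9 below 0, against a median of 0.00027 and 49.8% below 0 over all probe sets. Without wild type replicates 5 and 6 the median of the 9 was -0.031. The 9 genes were picked with earlier results of these data known, so these counts describe them and are no independent evidence of a direction.

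The spread between animals set the calprotectin pair apart from the other members. Within wild type the SD of the log2 value was 0.98 for S100a8 and 0.94 for S100a9, larger than in 99.9% of all probe sets, whose median was 0.11. Within knockout it was 0.34 and 0.37, larger than in 99.1% and 99.4% of probe sets. For Ngp the SD was 0.23 in wild type and 0.25 in knockout, larger than in 94.9% and 97.3% of probe sets. The wild-type shares were 93.9% for Mpo, 91.6% for Camp, 18.0% for Ltf and 1.27% for Elane. Il1b and Ltf varied more in knockout (0.20 and 0.17) than in wild type (0.10 and 0.071), and no test of that difference was made.

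S100a8 and S100a9 varied together over the 12 animals. The granule genes followed them less closely in value, although wild type replicates 5 and 6 were also the highest animals for Ltf and Mpo and for the mean of the 5 granule genes (0.16 and 0.17 as centred log2 values). The correlation of S100a9 with S100a8 was r = 0.987 (Spearman rho 0.937, n = 12), with a permutation p of 2.0e-05, the smallest that 100000 resamples can give, and 1.6e-04 after adjustment over the 8 correlations computed. Leaving out the 2 animals farthest from the S100a8 median, wild type replicates 5 and 6, gave r = 0.940 (adjusted permutation p = 0.00432). It was 0.985 after each genotype's mean was taken off and 0.977 in the 7 animals of the 7200 series. Knockout replicate 4, which also stood apart, was kept in each of these values. The 7500 series has too few animals for a value of its own. Mpo came next with r = 0.662 (rho 0.510, permutation p = 0.0351, adjusted 0.140), which was 0.082 without wild type replicates 5 and 6 and so rests on those animals. The other 6 had r from 0.173 for Cxcr2 to 0.419 for Camp, with adjusted permutation p from 0.371 to 0.625. Without wild type replicates 5 and 6, r was -0.22 for Ngp, -0.22 for Ltf and 0.098 for Camp. For Elane it was 0.675 in those 10 animals, at levels where the order has little meaning.

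**Figure D3:**
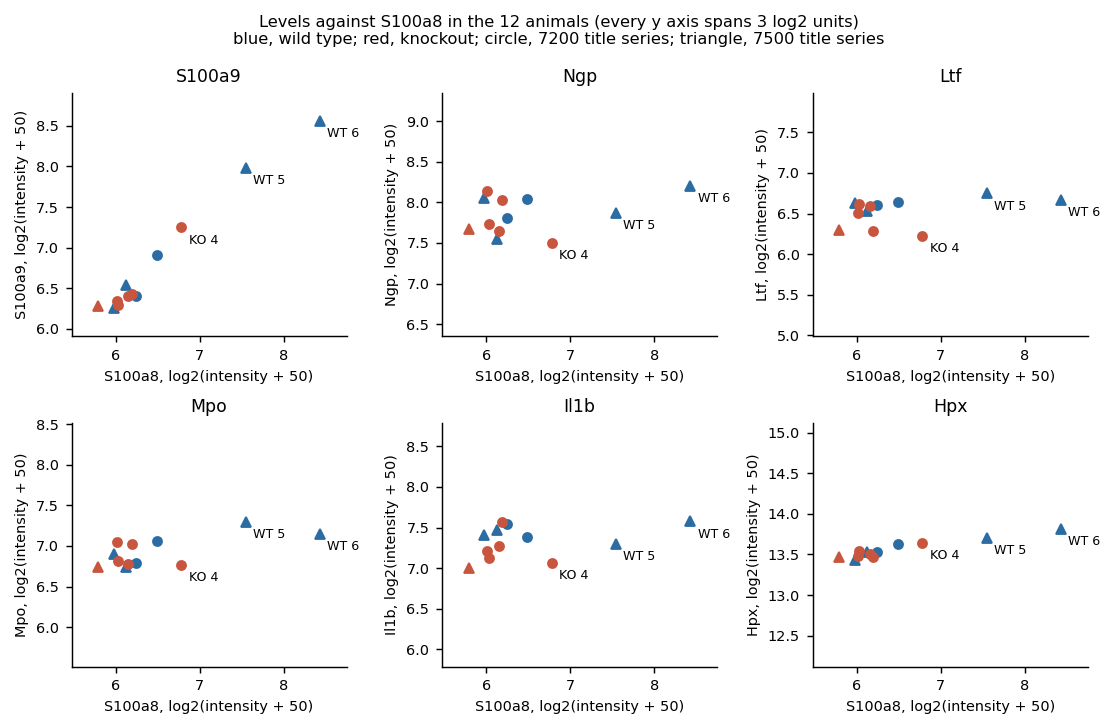
S100a9, Ngp, Ltf, Mpo, Il1b and the plasma protein gene Hpx against S100a8 in the 12 animals, both axes as log2(intensity + 50), with every y axis spanning the same range. S100a9 climbs with S100a8 through knockout replicate 4 and wild type replicates 5 and 6, and Hpx climbs over a narrow range. Knockout replicate 4 is the lowest animal for Ngp and Ltf. Wild type replicate 6 is the highest for Ngp, and wild type replicates 5 and 6 are the highest for Ltf.

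Outside the 9 genes, the 8 most like the mean of S100a8 and S100a9 were named. Likeness was the Pearson correlation over the 12 animals among 10700 genes with a mean intensity of at least 50, and is given as a description. The 8 leading genes were Hpx, the plasma haem carrier hemopexin (r = 0.950), the interleukin 13 receptor chain Il13ra1 (0.950), Litaf (0.937), the adhesion molecule Icam1 (0.935), Calu (0.934), complement factor I, Cfi (0.934), Igsf8 (0.932) and the NADPH oxidase subunit Ncf4 (0.932). Without wild type replicates 5 and 6 the correlations of these 8 ran from 0.618 for Ncf4 to 0.880 for Hpx, over 10 animals. Knockout replicate 4, which also stood apart, was among these 10, and no correlation without it was computed. Hpx read 13264 and 14331 in wild type replicates 5 and 6 and 12779 in knockout replicate 4, against 10968 to 12566 in the other animals. Icam1, which leukocytes bind on the vessel wall, read 208, 225 and 179 in the same order, with wild type replicate 1 at 185 and the others between 130 and 156.

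Acute phase genes, which hepatocytes raise in inflammation, had the same animals at the top. Wild type replicates 5 and 6 and knockout replicate 4 were the highest 3 animals for 9 of 12 acute phase genes, among them Saa1, Saa2 and Hpx, against 1.62% of all 18078 genes. The same held for S100a8 and S100a9, for 0 of the other 7 members and for 1 of 11 Kupffer cell markers. For 7 of 11 Kupffer cell markers, wild type replicates 5 and 6 were both among the highest 3 animals, against 7.46% of all genes. The summed intensity of the acute phase list ran from 65103 to 116829 in wild type and from 68276 to 98055 in knockout, and no marker of it was at 0. Saa2, a serum amyloid A gene, read 7930 and 5064 in wild type replicates 5 and 6 and 3462 in knockout replicate 4, with the other animals between 105 and 624. By the smallest p, the genes named from the list were Saa3 (log2 fold change -0.61), the orosomucoid gene Orm1 (-0.24) and the amyloid P gene Apcs (-0.44). Saa3 had other animals at the top, with wild type replicates 6, 1 and 2 at 1018, 806 and 339. Wild type replicate 5 read 317 for Saa3 and knockout replicate 4 read 307. The median of the 12 genes was -0.18, with 11 below 0. Without wild type replicates 5 and 6 it was 0.061, with 5 below 0. The part of this response in the calprotectin values was not tested.

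A pair of genes with ties to both cell types showed the same animals, and both were picked after their values were seen. Lcn2, lipocalin 2, is a specific granule protein of neutrophils and also an acute phase protein of hepatocytes. It read 3972 and 2386 in wild type replicates 5 and 6 and 1457 in knockout replicate 4, with the other 9 animals between 69.2 and 216. Cxcl1, a ligand of the receptor Cxcr2, read 642 and 740 in wild type replicates 5 and 6 and 1978 in knockout replicate 4, the highest of all, with the others between 72.7 and 188. Neither passed the test between genotypes (log2 fold changes -0.86 and -0.13, limma adjusted p = 0.940 and 0.993), and both had a positive value without wild type replicates 5 and 6 (0.51 and 0.57).

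**Figure D4:**
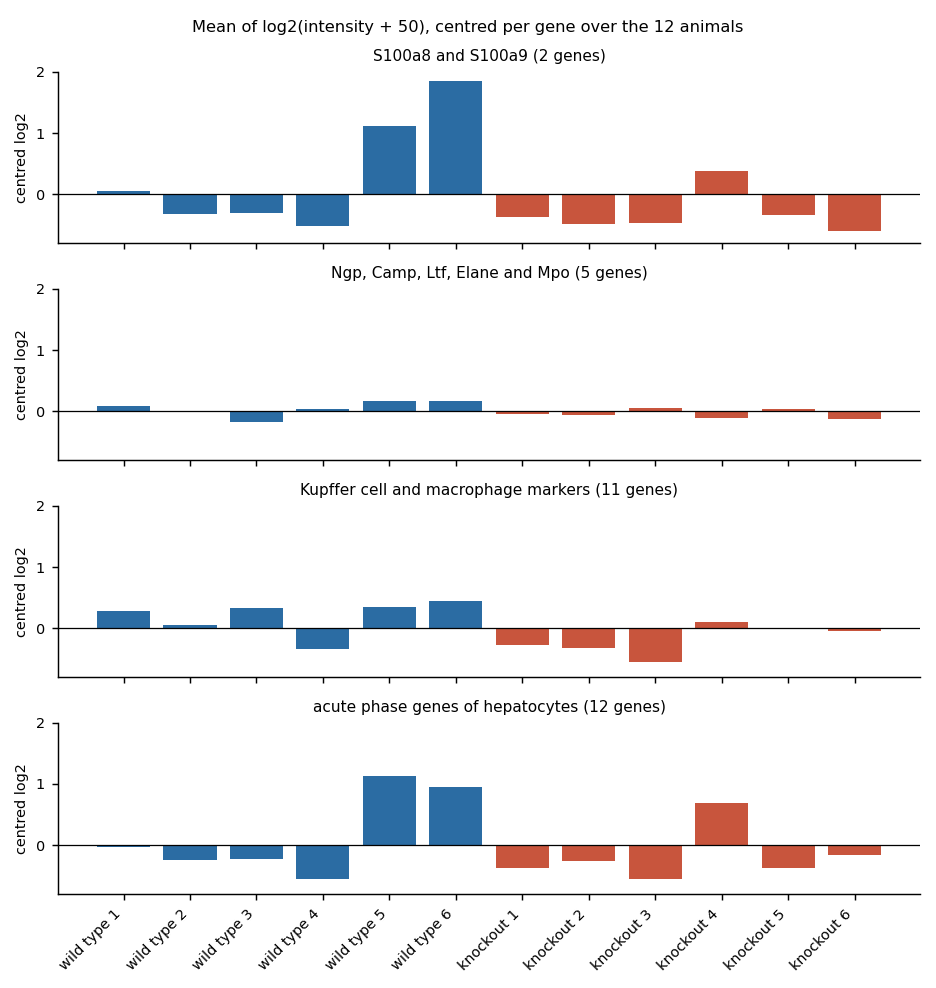
Mean of log2(intensity + 50), centred per gene over the 12 animals, for S100a8 and S100a9, the 5 granule genes, the Kupffer cell and macrophage markers and the acute phase genes (wild type blue, knockout red). Wild type replicates 5 and 6 and knockout replicate 4 are the highest animals for calprotectin (1.12, 1.85 and 0.37) and for the acute phase list (1.14, 0.95 and 0.68), and the 5 granule genes stay between -0.18 and 0.17.

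Other genes of neutrophils gave 0 calls among those measured. Of 14 other granule and cytosol genes, 1 was lower at an unadjusted p under 0.05 and 1 higher, against 3.27% and 3.23% of all genes (6.50% in either direction), and their median log2 fold change was -0.0040. Chil3, a chitinase-like protein, had -0.23, Padi4, which citrullinates histones, 0.17 and the collagenase gene Mmp8 -0.084, all dim. Of 12 surface receptors, 3 were lower and 1 higher, against the same shares of all genes (median -0.069). Among them, Fpr2, a receptor for formyl peptides and serum amyloid A, read 99.9 ± 17.6 and 72.5 ± 9.21 (intensity, SD, n = 6; log2 fold change -0.29, limma adjusted p = 0.706). Cxcr4, which retains neutrophils in the bone marrow, had -0.27 and the lectin Clec4d -0.22. Both were dim, above the array median on 0 of the 12 arrays. Cxcr4 was the 1 receptor of the 12 whose groups did not overlap (21.9 to 33.5 in wild type, 7.26 to 18.9 in knockout), against 0.254% of all genes.

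Ligands and signalling partners had medians close to 0 as lists, but most chemoattractant genes were below 0. Of these, 9 of 10 had a negative log2 fold change, against 49.6% of all genes, and 8 of 10 without wild type replicates 5 and 6. For the signalling genes it was 8 of 15. Mean intensity lay below the array median for 8 of the 10 chemoattractant genes, so most of their signs come from low signal. Of 10 chemoattractant genes, 3 were lower and 1 higher at an unadjusted p under 0.05, against 3.27% and 3.23% of all genes, with a median of -0.052 (-0.026 without wild type replicates 5 and 6). Ppbp, a platelet chemokine, had a log2 fold change of -0.27 and Cxcl2 of -0.15, both dim. Cxcl12, the ligand of Cxcr4, read 2620 ± 95.8 and 2887 ± 213 (intensity, SD, n = 6; log2 fold change 0.13, limma adjusted p = 0.831). None of the 15 genes of interleukin 1 and calprotectin signalling reached an unadjusted p under 0.05 (median -0.027). The antagonist Il1rn had -0.14, the inflammasome adaptor Pycard -0.10 and the kinase Irak4 -0.15.

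Genes that neutrophils share with macrophages had mostly negative values, and none passed the test. Of the 6 genes of the phagocyte NADPH oxidase, which makes superoxide, 3 were lower at an unadjusted p under 0.05, against 3.27% of all genes (median -0.16, and -0.090 without wild type replicates 5 and 6). Cyba read 102 ± 32.4 and 67.8 ± 14.03, Cybb 167 ± 45.2 and 125 ± 19.4 and Ncf4 76.8 ± 21.7 and 55.9 ± 7.79 (intensity, SD, n = 6). Their limma adjusted p-values were 0.826, 0.831 and 0.831. Spi1, which encodes PU.1, had -0.22, Cebpb 0.094 and Cebpd -0.088. Among 6 other S100 genes the median was -0.068, with S100a1 at -0.19, S100a6 at -0.21 and S100a11 at -0.067.

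Kupffer cell and macrophage markers had the lowest median of the lists. All 11 had a log2 fold change below 0, against 49.6% of all genes. At an unadjusted limma p under 0.05, 10 of them were lower, against 3.27% of all genes. Their median log2 fold change was -0.32, and -0.22 without wild type replicates 5 and 6. Exact two-sided permutation, unadjusted, gave p from 0.0238 for Timd4 to 0.0996 for Clec4f, under 0.05 only for Timd4 and Marco. These markers vary together over the animals, so the 10 are not independent results. Marco read 204 ± 95.7 and 96.8 ± 17.0, Timd4 113 ± 23.1 and 79.2 ± 19.1 and C1qb 492 ± 108 and 362 ± 95.6 (intensity, SD, n = 6), and 0 of the 11 passed over all probe sets. Their summed intensity ran from 3765 to 6900 in wild type and from 3176 to 5608 in knockout, with no marker at 0. The part of macrophage RNA in the values of Il1b and the NADPH oxidase genes was not tested. Markers of monocytes (4 genes), erythroid cells (5), platelets (4), T and NK cells (6) and hepatocytes (7) had medians from -0.069 to 0.085, and the 6 B cell markers had -0.11, with 3 lower at an unadjusted p under 0.05, against 3.27% of all genes.

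Genes named from these lists by the smallest p did not pass the test either. Among monocyte markers, the lysozyme gene Lyz2, which macrophages and neutrophils also express, read 545 ± 177 and 337 ± 63.9 (intensity, SD, n = 6; log2 fold change -0.58, limma adjusted p = 0.821), Cx3cr1 had -0.14 and F13a1 0.042. Among B cell markers, the immunoglobulin heavy chain gene Ighm read 107 ± 21.7 and 64.0 ± 5.68 (intensity, SD, n = 6; log2 fold change -0.46, limma adjusted p = 0.236), Jchain had -0.67 and Ms4a1 -0.16. The Ighm groups did not overlap (89.76 to 145.49 in wild type, 56.15 to 73.22 in knockout), against 0.254% of all genes. All 6 B cell markers had a log2 fold change below 0, against 49.6% of all genes. The erythroid genes Hba-a1 and Ermap had 0.21 and 0.094, and the platelet genes Gp1bb, Itga2b and Gp9 had 0.065, 0.045 and 0.049. Of T and NK cell genes, Nkg7, Klrb1c and Cd3e had -0.080, 0.083 and 0.056, and of hepatocyte genes, Tat, Cps1 and Cyp2e1 had 0.11, -0.039 and 0.037 (all log2 fold changes).

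**Figure D5:**
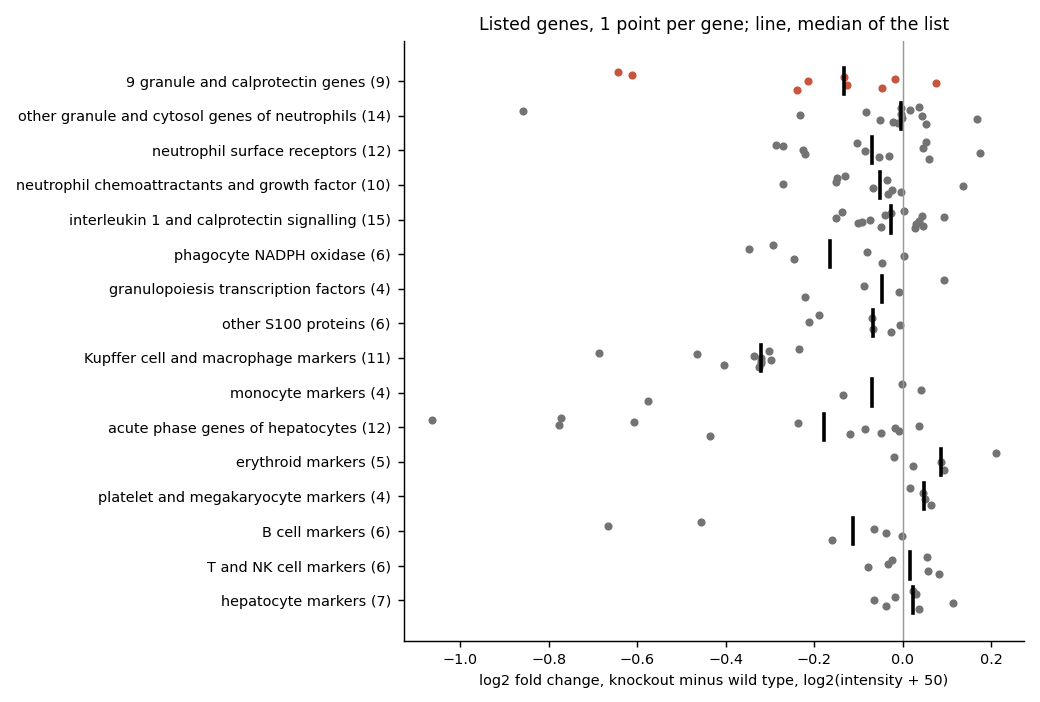
Log2 fold change, knockout minus wild type on the scale log2(intensity + 50), of each measured gene in the 9-gene set (red) and in the other lists (grey), with the median of each list as a line. The largest shift of a median is that of the Kupffer cell and macrophage markers at -0.32, against -0.13 for the 9 genes and 0.024 for hepatocyte markers.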

How the data were processed

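RNA of 12 livers was measured on arrays. The authors deposited linear intensities. The submitters' processing notes list RMA without a version, and other steps were not stated in the labels. Of the intensities, 689 were 0 on the linear scale, and the labels do not say how such values follow from RMA. All 540444 intensities were equal in both deposited tables, 1 of which adds the authors' signed fold change (a score) and 2 unadjusted p-values per probe set. Its block of symbols stands on the wrong rows (1 row matched), so each row's own gene number was used, with symbols from RefSeq (GRCm38.p6): 36848 probe sets had 1 gene, 585 several and 7604 none. The files name no build, so no probe set coordinates are given; those of the promoter windows are RefSeq's. No control probe sets were used.

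Values entered as log2(intensity + 50) into limma 3.58.1 under R 4.3.3 (lmFit, eBayes, no trend, two-sided) over all 45037 probe sets, with Benjamini-Hochberg adjustment and a threshold of 0.05. The test was checked on simulated data. Exact permutation used all 924 arrangements of the animals, and the smallest p it allows is 0.00216. P-values between genotypes set the difference in means against the spread between animals, and the number of arrays limits the precision. Alternatives were an offset of 16, a floor of 10, quantile or median scaling, a filter on dim probe sets, 1 probe set per gene, a trend, array weights, the title series, and leaving out animals singly or together. Lists used the probe set with the highest mean per gene. The members and lists were chosen with earlier results of these data known. Named are the 9 members, Sirt4, from every other list the 3 genes with the smallest unadjusted p, and the 8 genes most like the mean of S100a8 and S100a9; 1 gene so chosen is not reported here. Saa1, Saa2, Lcn2, Cxcl1 and Csf3r were named after their values were seen.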

Additional observations from a re-analysis of the deposited data

Results flagged for a closer look

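Of 98 groups of 6 animals tested for 1 value far from the rest (Dixon's test, critical value 0.625), 8 had one. Chance alone gives about 1 in 20 where genes are chosen without regard to their values. Lcn2, Cxcl1 and Saa2 were named after their values were seen, and other genes by their p or their likeness to calprotectin. The 8 can therefore not be set against that rate. Knockout replicate 4 lay far above the other 5 knockout animals for S100a9 (intensity 102.07), Lcn2 (1456.58), Cxcl1 (1977.92), Saa2 (3461.89), Orm1 (8677.79) and Apcs (6255.94). These genes vary together, so the 6 flags of this animal are not independent. Pycard in wild type replicate 6 lay high at 40.84, and Saa3 in knockout replicate 3 lay low at 151.22. Wild type replicates 5 and 6 both lay high for S100a8 and S100a9, and with 2 such animals in a group neither stands alone in this test.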

How the results depend on the processing

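Across 26 other settings S100a8 and S100a9 stayed below 0 (-1.23 to -0.050 and -1.06 to -0.031), as did Il1b (-0.44 to -0.14), and Ltf in 25 (-0.50 to -0.14). None of the 9 genes passed limma's adjusted threshold in any setting. Leaving out 1 animal at a time, S100a8 ran from -0.81 to -0.32. The count over all probe sets, 0 with limma against 2651 at an unadjusted p under 0.05, became 1 with quantile normalization, with 1 probe set per gene, with an intensity trend and without the knockout arrays titled -2 (Sirt4 each time, whose adjusted p was 0.292 with an offset of 16, 0.402 with a floor of 10 and 0.877 with a term for the title series); leaving out 1 animal gave 0 to 1, the 1 being a probe set of several genes without wild type replicate 1.

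Signs turned for several genes, Lcn2 (-0.86), Saa1 (-0.77) and Saa2 (-1.06) among them, and the cause was not tested. Without wild type replicates 5 and 6, positive values were 0.063 (Camp), 0.51 (Lcn2), 0.57 (Cxcl1), 0.23 (Saa1), 0.35 (Saa2), 0.12 (Cebpd), 0.011 (Litaf), 0.023 (Calu), 0.010 (Cfi) and 0.022 (Igsf8). Leaving out knockout replicate 4 too, a choice made after seeing the data, gave 0.073 (Camp), 0.0098 (Mpo), 0.059 (Cxcr2), 0.0045 (Lcn2), 0.012 (Cebpd) and 0.0062 (Calu). Without the arrays titled -2, Ngp was 0.051, Cxcr2 0.076 and Irak4 0.015. In the 7200 series Lcn2 was 0.27, Mmp8 0.047, Cebpd 0.077 and Cxcl1 0.34, and in the 7500 series Camp was 0.026 and Elane -0.019. A term for the title series gave 0.049 for Cebpd. Leaving out single animals, the ranges were -0.086 to 0.034 (Camp), -0.095 to 0.024 (Cxcr2), -0.73 to 0.17 (Cxcl1) and -0.20 to 0.060 (Cebpd). Correlations with S100a8 turned to -0.22 (Ngp), -0.22 (Ltf) and -0.39 (Cxcr2) without wild type replicates 5 and 6, and in the 7200 series to -0.44 (Ngp), -0.50 (Ltf), -0.19 (Mpo), -0.71 (Cxcr2) and -0.18 (Il1b). A mean intensity of at least 50 removed Camp, Ltf, Elane and Cxcr2, so they have no value there. No paired analysis was possible because the title numbers pair no animals.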
